A study of Rattus norvegicus and Sus scrofa and Bos taurus with 188 samples.

Results

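Pig morulae that carry maternal chromosomes only were examined for 10 imprinted genes that are known, in mouse or human, to be expressed from the copy inherited from the father. The genes are USP29, IMPACT, NDN, MEST, SGCE, DIRAS3, PEG10, INPP5F, PLAGL1 and ZDBF2, found by their symbols among the 15877 gene names of the deposited expression table. All 10 were measured, on 29 of the 37571 Ensembl transcript rows. They are the listed paternally expressed genes that were already known to stand above 0 in this table, with MKRN3 and FAM50B, also above 0, left out, so their being above 0 is a property of the choice and not a result.

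The series profiles DNA methylation, histone marks and RNA in gametes and early embryos of several mammals, with 188 samples here. The group used is the RNA of pig (Sus scrofa) morulae marked PG, a mark that sister pig samples spell out as parthenogenetic activation. It has 4 Smart-seq2 libraries, in which polyadenylated RNA is copied into full-length cDNA. The labels give no breed, age, treatment, number of embryos per library or source of the eggs, and no fertilised pig morula was analysed here. The authors merged the 4 libraries into 1 column of FPKM, which corrects a count of fragments for the length of the transcript and the size of the library. There is therefore no spread between replicates for any value, no SD, no test, and no depth from which an interval could be computed. Where a gene has several rows its level is that of the highest row, unless the sum of its rows is named, and 1 FPKM is the level from which a gene is counted as expressed.

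As background, imprinting marks a gene in the egg or the sperm, mostly by DNA methylation, so that afterwards only 1 parental copy is transcribed. Many paternally expressed genes are methylated in the egg, and that methylation keeps the maternal copy silent after fertilisation. A parthenogenetic embryo starts from an activated egg without sperm, so each of its copies has come through the egg. Imprinted status differs between species and between tissues, and some of the genes have a second, biallelic promoter. The table holds no allele information, and its values cannot tell RNA stored in the egg apart from RNA made by the embryo. In bulk libraries, fewer expressing cells and less RNA per cell cannot be told apart either.

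Marker genes of early embryos were expressed. All 12 egg and embryo markers examined stood at 1 FPKM or more, between 3.16 FPKM for GATA3 and 194 FPKM for TFAP2C. Of 14 measured markers of cumulus and granulosa cells, which surround the egg, 2 (14.3%) did so, FST at 16.9 FPKM and VIM at 2.25 FPKM. The share was 48.8% over all gene names and 59.0% over those above 0. Both marker lists were chosen with earlier results of these data known, so these counts are no independent test of cell type. The defining hormone and receptor genes INHA and FSHR and the regulator gene FOXL2 were listed at 0, and CYP19A1 stood at 0.835 FPKM. Over the whole table, 13132 gene names were above 0, with a median of 1.85 FPKM. The table ends in 474 rows that are all at 0, which hold 215 gene names found nowhere else, and a gene there is only described as listed at 0. No member lies in that stretch.

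The 10 genes spanned a 63.6-fold range, from 10.1 FPKM for USP29 to 0.160 FPKM for ZDBF2, with a median of 1.89 FPKM. Of the 10, 6 stood at 1 FPKM or more, against 48.8% of all gene names and 59.0% of the gene names above 0. The share of 60% is close to that of the genes above 0, which is the fitting background, since the 10 were all known to be above 0. It would be lower with MKRN3 (0.281 FPKM) and FAM50B (0.438 FPKM), which were left out of the 10. With both counted, 6 measured paternally expressed genes stood at 1 FPKM or more and 6 above 0 but below it. With the rows of each gene summed the count was 7, against 61.2% of the gene names above 0 and 50.6% of all. At a threshold of 5 FPKM it was 4, against 34.4% of the gene names above 0 and 28.4% of all. At 1 TPM, the same values scaled to a fixed total, it was 9, against 74.1% of the gene names above 0 and 61.3% of all. Their rows together came to 41.8 FPKM, or 0.0137% of the FPKM total of the table. Of the 29 rows 8 stood at 1 FPKM or more (27.6%, against 30.3% of all rows), 11 lay from 0.01 to 1 FPKM, 5 between 1e-06 and 0.01 FPKM and 5 above 0 but under 1e-06 FPKM. None was at 0.

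**Figure D1:**
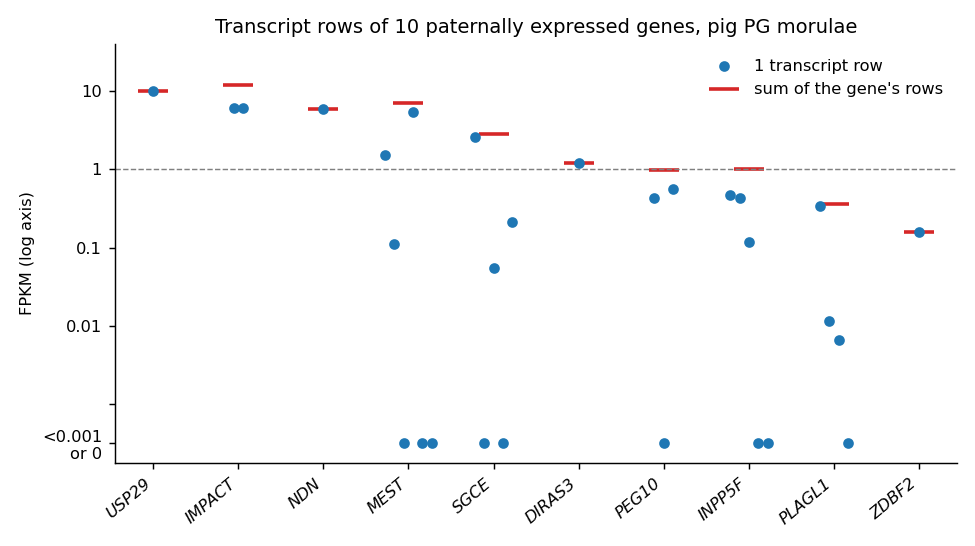
FPKM of every transcript row (blue points, logarithmic axis) and the sum of a gene's rows (red bars) for the 10 paternally expressed genes in the authors' merged column, with rows under 0.001 FPKM drawn at the bottom and 1 FPKM dashed. USP29, NDN, DIRAS3 and ZDBF2 have 1 row each; the 2 rows of IMPACT lie together at 6.02 and 6.06 FPKM, and the sums of PEG10 and INPP5F lie at 0.989 and 1.02 FPKM.

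The order of the genes had 4 steps of more than 2 times. USP29 came first, 1.68 times above IMPACT. IMPACT, NDN and MEST followed one another at steps of 1.02 and 1.09 times, so their values were nearly equal. SGCE followed 2.12 times below MEST, DIRAS3 2.13 times below SGCE, and PEG10 2.15 times below DIRAS3. PEG10, INPP5F and PLAGL1 formed a second close group, 1.196 and 1.39 times apart, and ZDBF2 lay 2.11 times below PLAGL1. Whether any of these steps exceeds the variation between embryos cannot be said from merged values.

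Among the 15877 gene names, USP29 ranked 3169th, above 80.04% of them. IMPACT ranked 4144th, NDN 4186th and MEST 4363rd, so all 3 stood above 72.5% to 73.9% of the genes. SGCE ranked 5900th (above 62.8%) and DIRAS3 7382nd (above 53.5%). PEG10 ranked 8787th, INPP5F 9092nd, PLAGL1 9590th and ZDBF2 10725th, above 44.7%, 42.7%, 39.6% and 32.4% of the genes. Against the genes above 0 alone these places were lower, down to above 75.9% for USP29 and above 18.3% for ZDBF2. USP29 stood at 5.49 times the median gene above 0 and ZDBF2 at 0.0863 times that median.

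**Figure D2:**
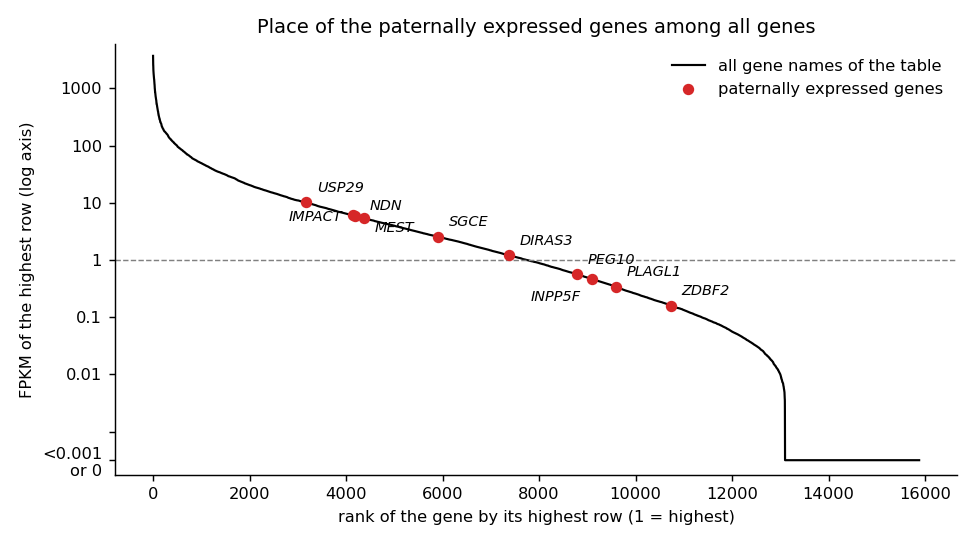
FPKM of the highest row (logarithmic axis) against rank for all 15877 gene names (black line), with the 10 paternally expressed genes in red and 1 FPKM dashed. The red points run from rank 3169 (USP29) to rank 10725 (ZDBF2), with IMPACT, NDN and MEST side by side and all of them in the sloping middle part of the curve.

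The genes next to them in level in the merged column are given for orientation only. USP29 stood between NMB (10.2 FPKM) and the stress-responsive transcription factor gene ATF5 (10.1 FPKM), with RAB35 and RAB8A, GTPases of membrane traffic, 2 places away. IMPACT lay between the sugar transporter gene SLC35B4 (6.07 FPKM) and SMUG1, a DNA repair glycosylase (6.05 FPKM). NDN lay next to LETM1, a mitochondrial membrane protein gene (5.93 FPKM), and MEST next to ZNF280B (5.44 FPKM) and PIN4 (5.43 FPKM). SGCE stood beside CLPTM1 (2.57 FPKM) and PPM1K (2.56 FPKM), and DIRAS3 beside CCDC62 (1.21 FPKM) and TMEM254 (1.205 FPKM). PEG10 lay beside UBQLN4 (0.562 FPKM), INPP5F beside TSPYL2 (0.469 FPKM), PLAGL1 beside the heat shock factor gene HSF4 (0.337 FPKM) and ZDBF2 beside SERPINH1 (0.159 FPKM), a collagen chaperone gene. Likeness here is the closeness of 1 value, over 1 merged column.

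USP29 encodes a ubiquitin-specific protease, an enzyme that removes ubiquitin from other proteins, and is imprinted together with PEG3 in mouse. Its only row, ENSSSCT00000054348.1, held 10.1485 FPKM. Its paralogue USP37 stood at 2.93 FPKM in its highest row, 3.46 times lower, but at 7.47 FPKM with 5 rows summed, 1.36 times lower. Of the genes whose products it is reported to act on in human cells, CLSPN, a checkpoint adaptor, stood at 8.35 FPKM and HIF1A, the oxygen-regulated transcription factor, at 10.97 FPKM. In file order USP29 is preceded by a short RNA name at 0 and 2 rows of ZFP28, the higher at 3.56 FPKM. Short RNA names are here those that begin with RF or carry a microRNA tag. The class was read from the name alone, so some of these rows may be parts of longer RNAs. It is followed by the zinc finger gene ZIM3 at 79.8 FPKM and by 2 rows of the Aurora kinase gene AURKC at 11.4 and 6.13 FPKM. ZIM3 was thus 7.87 times above USP29, and AURKC 1.12 times above it. PEG3 and ZIM2 of the same imprinted cluster were not analysed here.

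IMPACT encodes a protein that binds GCN1 and restrains the amino acid sensing kinase GCN2. It is imprinted in mouse, while both copies are expressed in human. Its 2 rows, ENSSSCT00000004113.3 and ENSSSCT00000044081.1, held 6.02 and 6.06 FPKM, or 49.9% and 50.1% of their sum of 12.1 FPKM. So even a split is rare. In the 2996 genes with 2 rows and at least 0.1 FPKM, the higher row held a median of 96.2% of the sum. Only 0.200% of these genes had a lower share than IMPACT. An even split is the lowest share possible with 2 rows, so IMPACT lies close to that bound. Whether reads could tell its 2 rows apart cannot be seen from these values. With rows summed IMPACT was the highest of the 10 genes (rank 3220), ahead of USP29 (rank 3565). Of its pathway, EIF2AK4, which encodes GCN2, stood at 13.8 FPKM and GCN1 at 4.82 FPKM. EIF2S1, whose product is the substrate of GCN2, stood at 131 FPKM, and ATF4, the transcription factor downstream, at 85.6 FPKM. These genes were picked by hand, so nothing is read from their being expressed.

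Around IMPACT in file order, the lipid-binding protein gene OSBPL1A stood at 4.55 FPKM in 1 row and 0.140 FPKM in the other. On the far side lay the histamine receptor gene HRH4 at 0.283 FPKM, ZNF521 at 0.763 FPKM and a row of the chromatin remodelling subunit gene SS18 at 2.88 FPKM. IMPACT was 21.4 times above HRH4 and 1.33 times above OSBPL1A. The highest row of SS18, farther on, held 26.03 FPKM.

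NDN, a growth suppressor of the MAGE family, lies in the region that is deleted or silenced in Prader-Willi syndrome in human. Its only row, ENSSSCT00000005336.3, held 5.93 FPKM. The genes that follow it in file order belong to the same imprinted region: MAGEL2, another MAGE gene, was listed at 0, and MKRN3, a ubiquitin ligase gene, stood at 0.281 FPKM. NDN was 21.1 times above MKRN3. The 3 rows before NDN and the third row after it are short RNA names and were all at 0. SNRPN of the same region was listed at 0 within the closing stretch of zeros, so nothing is said of its expression, and UBE3A, a ubiquitin ligase gene of the region that is maternally expressed in neurons, stood at 24.6 FPKM. MAGED1, a family member outside the region, stood at 6.21 FPKM, against which NDN was 0.955 times as high. E2F1, the cell cycle factor that necdin binds in mouse, stood at 0.778 FPKM.

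MEST encodes a membrane enzyme of the alpha/beta hydrolase fold, named for its expression in mesoderm. It has 6 rows. ENSSSCT00000018024.3 held 5.43 FPKM, or 77.04% of the sum of 7.05 FPKM, ENSSSCT00000057690.1 held 1.51 FPKM (21.4%) and ENSSSCT00000039045.1 held 0.111 FPKM. The other rows held 0.000360 FPKM in 1 case and under 1e-06 FPKM in 2. The median share of the highest row over the 309 genes with 6 rows and at least 0.1 FPKM was 63.1%. In human, promoters of MEST differ in imprinting, and the table does not say which promoter a row starts from. COPG2, a coat protein gene whose 3' end meets that of MEST in human and mouse, stood at 4.16 FPKM in the row just before, so MEST was 1.30 times above it. Smart-seq2 does not keep the strand, so reads from overlapping ends of the genes could not be told apart. The row after MEST is ssc-mir-335, the microRNA within a MEST intron, and was at 0, as were the 2 rows after it, whose names begin with RF. LRP6, a WNT receptor reported to be regulated by MEST in mouse, stood at 4.99 FPKM.

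SGCE and PEG10 lie side by side and start from a shared imprinted promoter region in mouse and human. SGCE encodes epsilon-sarcoglycan, a subunit of a membrane complex that binds dystrophin, and PEG10 derives from a retrotransposon and is needed for the placenta in mouse. SGCE stood at 2.57 FPKM and PEG10 at 0.561 FPKM, a 4.58-fold difference that came to 2.87-fold with rows summed. Of the 5 rows of SGCE, ENSSSCT00000029820.2 held 90.5% of the sum of 2.84 FPKM, and ENSSSCT00000045086.1 and ENSSSCT00000045221.1 held 0.214 and 0.0551 FPKM. Of the 3 rows of PEG10, ENSSSCT00000046427.1 held 0.561 FPKM and ENSSSCT00000061417.1 held 0.428 FPKM, together 0.989 FPKM with the third row at 6.59e-05 FPKM. The more even split placed the share of PEG10's highest row, 56.7%, above that of 14.8% of the 1650 genes with 3 rows.

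On the SGCE side of the pair, CASD1, which encodes a sialic acid acetyltransferase, held 2.00, 2.18 and 3.97 FPKM in the 3 nearest rows, and SGCE was 0.647 times as high as its highest. On the PEG10 side lay a row with a short RNA name at 0 and PPP1R9A, which encodes a neuronal phosphatase scaffold. Its nearest rows held 4.04e-06 and 0.323 FPKM and its highest 1.60 FPKM, so PEG10 was 0.350 times as high. CASD1 and SGCE thus stood above 1 FPKM, and both main rows of PEG10, next to SGCE, below it. TFPI2, a maternally expressed placental gene of the same chromosome region in human and mouse, stood at 8.79 FPKM.

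**Figure D3:**
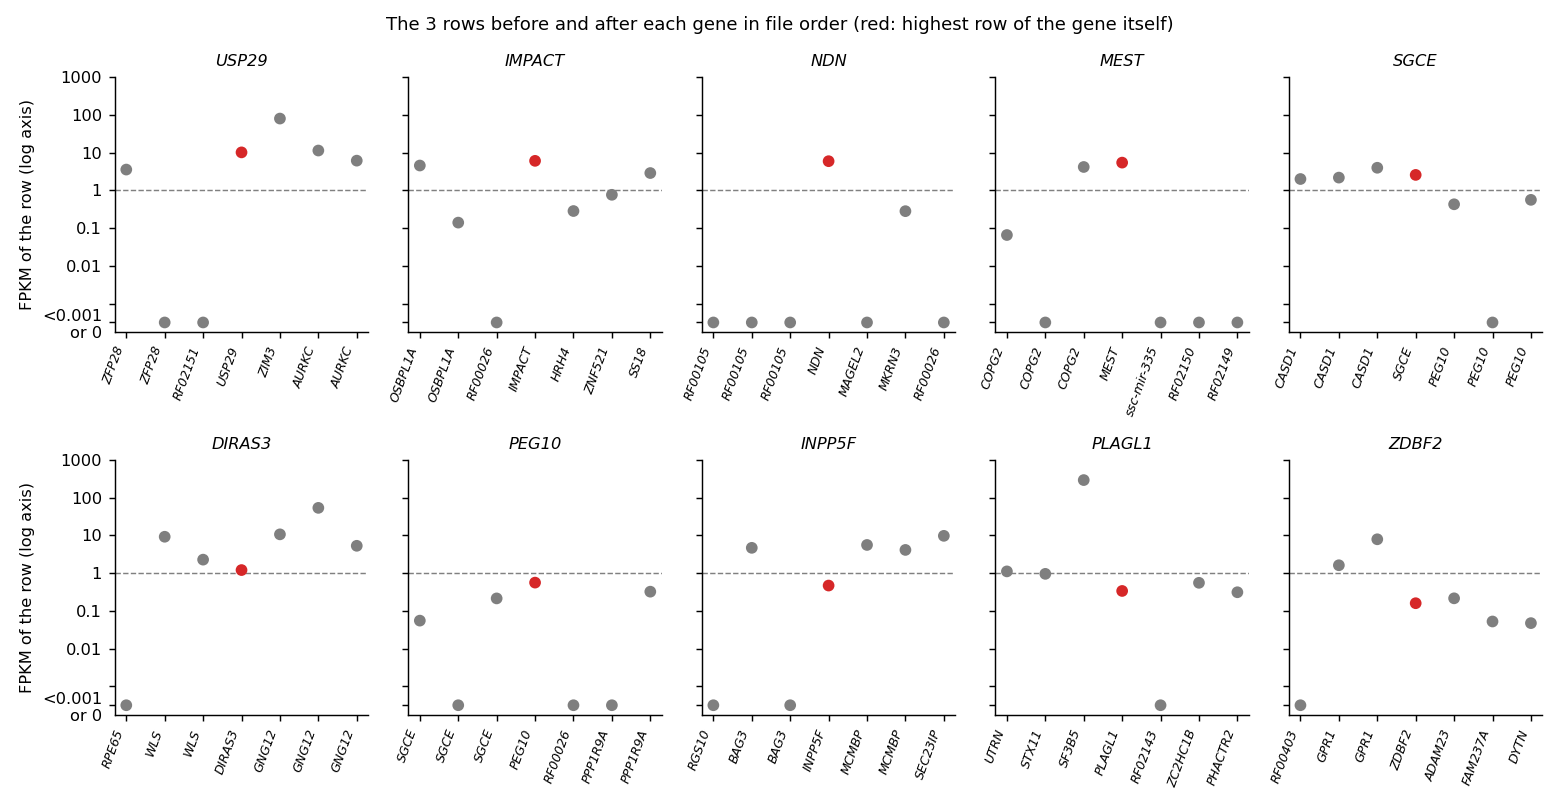
FPKM (logarithmic axis) of the 3 rows before and the 3 rows after each of the 10 genes in file order (grey), with the highest row of the gene itself in red, 1 FPKM dashed and rows under 0.001 FPKM drawn at the bottom. NDN (5.93 FPKM) stands alone among rows at or below 0.281 FPKM, 4 of them short RNA names. INPP5F (0.469 FPKM) lies below 4 rows of BAG3, MCMBP and SEC23IP at 4.12 to 9.73 FPKM. It lies above a row each of RGS10 and BAG3.

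DIRAS3 encodes a small GTPase of the Ras family that inhibits growth in human cells. Its only row, ENSSSCT00000004202.2, held 1.21 FPKM, the value nearest to the threshold from above, and PEG10, the nearest below, held 0.561 FPKM. Its relatives DIRAS2 and DIRAS1 stood at 0.781 and 0.0229 FPKM. Of the 6 rows around it 5 were higher. The exception was RPE65, a gene of the visual cycle, whose row 3 places before it was at 0. WLS, the carrier of secreted WNT proteins, held 9.20 and 2.28 FPKM in the rows before it, and the 3 rows of GNG12, a G protein gamma subunit gene, held 10.7, 53.6 and 5.30 FPKM after it. GNG12 was 44.5 times and WLS 7.63 times above DIRAS3. In human DIRAS3 lies close beside GNG12, and with no strand kept, reads from overlapping transcripts could not be told apart.

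INPP5F encodes a phosphatase of phosphoinositides with a Sac domain. In mouse and human the imprinted product is a short variant from an internal promoter, while the full-length transcript comes from both copies. No row reached 1 FPKM. ENSSSCT00000054054.1, ENSSSCT00000011688.3 and ENSSSCT00000055478.1 held 0.469, 0.427 and 0.119 FPKM, or 46.2%, 42.1% and 11.8% of the sum of 1.02 FPKM. The 2 others held 8.01e-06 FPKM and under 1e-06 FPKM. Only 10.7% of the 643 genes with 5 rows had a lower share in their highest row. The table does not say which row matches the short variant. Of the 4 genes among the nearest rows 3 were higher. The co-chaperone gene BAG3 stood at 4.68 FPKM, 9.98 times above INPP5F, the replication protein gene MCMBP at 5.58 FPKM, 11.9 times above it, and SEC23IP at 9.73 FPKM. RGS10, a regulator of G protein signalling, was lower, at 5.91e-06 FPKM in the row shown and 0.105 FPKM in its highest, and the nearest row of BAG3 held 0.000105 FPKM. Of the phosphatase family of INPP5F, SACM1L stood at 4.08 FPKM, SYNJ1 at 3.99 FPKM, SYNJ2 at 1.99 FPKM and FIG4 at 0.758 FPKM, all above INPP5F.

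PLAGL1 encodes a zinc finger transcription factor that arrests the cell cycle and is linked to transient neonatal diabetes in human. Of its 4 rows ENSSSCT00000058859.1 held 0.337 FPKM, or 94.9% of the sum of 0.355 FPKM, and the next held 0.0114 and 0.00661 FPKM. Its relative PLAGL2, not known as imprinted, stood at 8.86 FPKM, 26.3 times above it, and PLAG1 at 0.595 FPKM. Of genes that it activates in other mammals, CDKN1A stood at 20.9 FPKM and ADCYAP1R1 at 0.155 FPKM. The row just before PLAGL1 belongs to SF3B5, a splicing factor gene, at 292 FPKM, which is 866 times as high. STX11 and UTRN before it held 0.957 and 1.112 FPKM, and ZC2HC1B and PHACTR2 after it 0.554 and 0.311 FPKM.

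ZDBF2, named for a zinc finger of the DBF type, is paternally expressed in mouse and human and was the lowest of the 10. Its only row, ENSSSCT00000017563.3, held 0.160 FPKM. GPR1, a chemerin receptor gene of the same imprinted domain in mouse, lies just before it and stood at 7.88 FPKM in its highest row, 49.4 times above ZDBF2. After it lay ADAM23 at 0.215 FPKM, FAM237A at 0.0523 FPKM and DYTN at 0.0474 FPKM. ZDBF2 and the 3 rows after it thus all lay below 1 FPKM.

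Over the 10 neighbourhoods together, 23 of 60 rows (38.3%) stood at 1 FPKM or more, against 30.3% of all rows. With the 10 genes and short RNA names left out there were 28 distinct neighbour genes, of which 16 (57.1%) were expressed, with a median of 2.58 FPKM, against 50.3% of all genes outside short RNA names. All 12 neighbour rows of short RNA names were at 0. Of the 682 short RNA names in the whole table, 566 were at 0, so nothing is read from these rows. Short RNA names aside, NDN stood above the 2 genes among its neighbour rows and MEST above its only 1, COPG2. PEG10 and PLAGL1 were exceeded by 2 of 2 and 4 of 5 genes. Of 35 measured genes listed as near the 10 in human or mouse, many of them the same genes, 21 (60%) were expressed. Their median was 3.97 FPKM, and the share over all genes outside short RNA names is again 50.3%. That list holds CMKLR1 (0.122 FPKM), while the gene before ZDBF2 in rat is CMKLR2, so CMKLR1 may not belong there. The table gives no coordinates, and no pig gene table was used here. In the rat assembly GRCr8 of RefSeq, 25 of the 29 gene and neighbour pairs that could be placed lie within 10 protein-coding genes of each other, which bears on how far file order follows gene order. The 4 other pairs are that of USP29 with ZFP28 and all 3 of DIRAS3, and ZIM3 is not among the rat protein-coding genes used. In rat, RPE65 and WLS are adjacent, but DIRAS3 and WLS lie on different chromosomes, as do WLS and GNG12. The rat order therefore cannot be used to judge the file order around DIRAS3.

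The 10 genes form part of a longer list. Of 22 other genes known as paternally expressed, 11 were measured and none reached 1 FPKM. Nothing is read from that count, since these are the genes left once those above 0, other than FAM50B and MKRN3, had been taken. FAM50B stood at 0.438 FPKM and MKRN3 at 0.281 FPKM. DLK1, NNAT, MAGEL2, NAP1L5, RTL1, INS and RASGRF1 were listed at 0. DIO3 and SNRPN were also at 0, within the closing stretch of zeros. Over all 21 measured paternally expressed genes 6 (28.6%) stood at 1 FPKM or more, against 48.8% of all gene names. Their median was 0.281 FPKM, against 0.916 FPKM over all genes. Both figures count DIO3 and SNRPN, of whose expression nothing is said. Of the 19 genes outside the closing stretch 6 stood at 1 FPKM or more, against 49.5% of all gene names outside it. Of 22 measured maternally expressed genes 10 (45.5%) did so, with a median of 0.482 FPKM, led by PHLDA2, a placental growth regulator gene, at 28.9 FPKM and UBE3A at 24.6 FPKM. The others at 1 FPKM or more included NAP1L4 (14.6 FPKM), CD81 (12.7 FPKM), GNAS (3.74 FPKM), CDKN1C (3.24 FPKM) and IGF2R (2.07 FPKM), with DLX5 at 5.54 FPKM. Above 0 but below 1 FPKM were 8 genes, OSBPL5, SLC22A3, KCNQ1, SLC22A18, GRB10, TSSC4, ASB4 and CALCR, the lowest at 0.0301 FPKM and the highest at 0.553 FPKM. KLF14, ATP10A, SLC22A2 and ASCL2 were listed at 0. With genes and not embryos as the points, the gap between both parental classes was not tested.

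**Figure D4:**
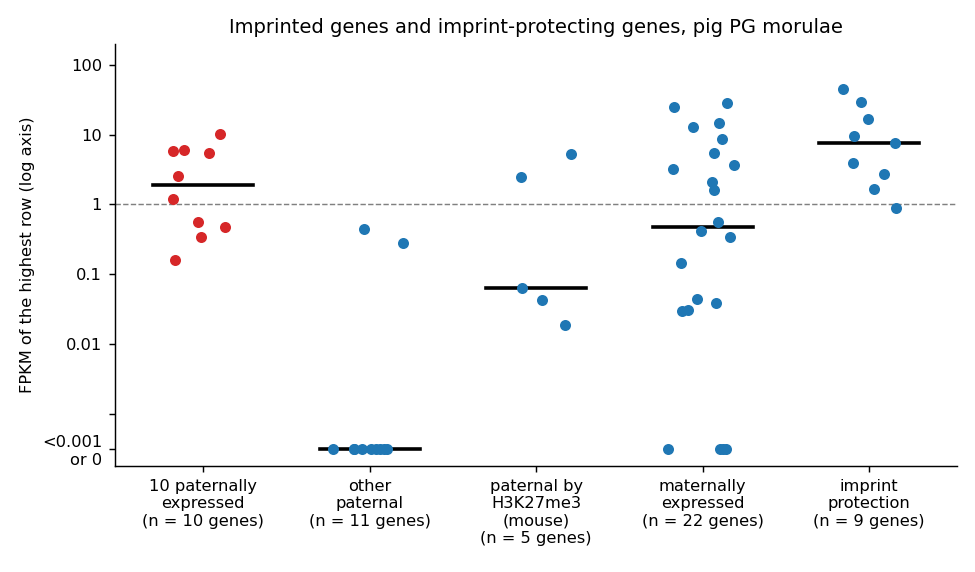
FPKM of the highest row (logarithmic axis) for the measured genes of 5 lists, 1 point a gene, with the list median as a black bar, 1 FPKM dashed and genes at 0 drawn at the bottom. The 10 genes (red, chosen with their values known) spread around a median of 1.89 FPKM, 9 of the 11 other paternally expressed genes, the remainder of that choice, are at 0, and the medians of the maternally expressed and imprint-protecting genes lie at 0.482 and 7.71 FPKM.

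A further 5 genes are paternally expressed in early mouse embryos through H3K27me3 laid down in the egg, in place of DNA methylation. In these pig embryos GAB1, a signalling adaptor gene, stood at 5.27 FPKM and JADE1, a histone acetylation scaffold gene, at 2.48 FPKM. SFMBT2, SMOC1 and SLC38A4 stood at 0.0630, 0.0430 and 0.0186 FPKM. Of 9 measured genes that protect methylation imprints after fertilisation in mouse or human, 8 (88.9%) were expressed, against 48.8% of all gene names and 59.0% of those above 0. This list was chosen with earlier results of these data known, so nothing is read from that share. The zinc finger genes that recognise imprints, ZFP57 and ZNF445, stood at 3.98 and 1.67 FPKM, their partner TRIM28 at 9.66 FPKM and the H3K9 methyltransferase gene SETDB1 at 2.73 FPKM. DNMT1, which copies methylation after replication, stood at 29.0 FPKM, HELLS at 16.5 FPKM, CTCF at 7.71 FPKM and NAA10 at 45.9 FPKM, and UHRF1, which guides DNMT1, at 0.896 FPKM. Methylation itself was not measured in these libraries.

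Families of the 10 genes gave no common pattern. Of 19 relatives examined 9 (47.4%) stood at 1 FPKM or more, against 48.8% of all genes. SGCE was the highest of the 5 sarcoglycan genes examined, ahead of SGCD (2.11 FPKM), SGCA (1.62 FPKM) and SGCB (0.807 FPKM), with SGCZ at 0.0246 FPKM. Among relatives of PEG10 that also derive from retrotransposons, LDOC1 stood at 8.38 FPKM, 14.9 times above PEG10, RTL6 at 0.668 FPKM and RTL5 at 0.0169 FPKM, and RTL1, itself paternally expressed, was listed at 0. Of 15 partner and target genes examined 13 (86.7%) were expressed, against 48.8% of all gene names and 59.0% of those above 0. These 15 were picked by hand, so nothing is read from that share. Those not named above included the dystroglycan gene DAG1 at 1.70 FPKM, DTNA at 1.02 FPKM, PPARG at 2.101 FPKM, BECN1 at 2.34 FPKM and PIK3C3 at 12.04 FPKM.

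**Figure D5:**
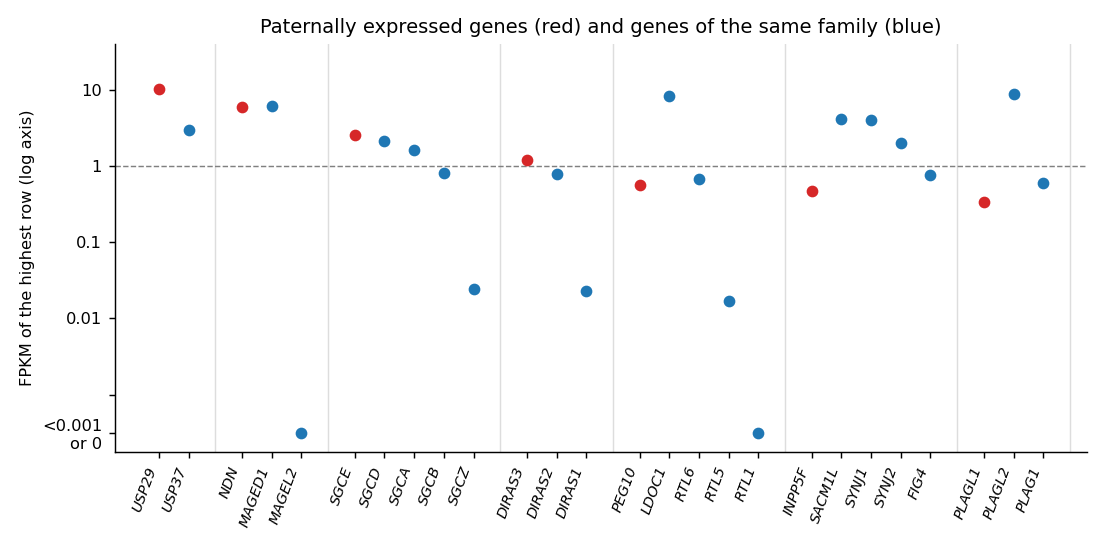
FPKM of the highest row (logarithmic axis) for 7 of the paternally expressed genes (red) and the genes of their families examined here (blue), with families divided by grey lines, 1 FPKM dashed and genes at 0 drawn at the bottom. SGCE (2.57 FPKM) lies above the 4 other sarcoglycan genes shown, while PEG10, INPP5F and PLAGL1 lie below LDOC1, SACM1L and PLAGL2.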

How the data were processed

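RNA of pig PG morulae was measured by Smart-seq2, per the labels' protocols. The authors deposited FPKM values per Ensembl transcript in 1 column, in which 4 libraries are merged, per the file headers and the table's name. Whether reads or FPKM were merged, the aligner and the annotation are not given in the sources used here. Per the submitters' processing notes, TopHat2 2.1.1, Cufflinks 2.2.1 and the build susScr11 are among the tools and builds of the series. The FPKM sum to 304889, and 4534 rows lie above 0 and under 1e-06 FPKM, so whole reads could not be recovered and depth is unknown. A wrong transcript length would shift a gene's level.

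A gene's value was its highest row, ranks counted genes strictly higher, and a share of genes strictly lower was given beside them. Python 3.11.15, pandas 2.3.3 and NumPy 2.4.6 were used, and ranking was tested on simulated data. Named were the 10 genes, the listed imprinted, imprint-protecting, related and neighbouring genes, the 3 rows before and after each gene, and the genes within 2 ranks. Of these the nearest are given. Related, partner, marker and neighbour genes not printed are counted in the totals. Members and lists were chosen with earlier results of these data known. Some listed genes are not reported here.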

Additional observations from a re-analysis of the deposited data

How the results depend on the processing

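At thresholds other than 1 FPKM the counts changed. At 5 FPKM, 4 of the 10 genes (40%) passed, beside 34.4% of the gene names above 0. Of the maternally expressed genes 27.3% passed and of the imprint-protecting genes 55.6%, beside 28.4% of all gene names. Scaled to TPM, where 1 TPM equals 0.305 FPKM, 9 of the 10 (90%) passed, beside 74.1% of the gene names above 0, and 1 of the 11 other paternally expressed genes (9.09%) did. With rows summed 7 of the 10 passed, since INPP5F reached 1.02 FPKM, and 4 of the 10 genes kept their place in the order. The mean of a gene's rows in place of the highest lowered the median of the 10 to 0.871 FPKM. Summing moved IMPACT to 12.1, PEG10 to 0.989 and INPP5F to 1.02 FPKM. In all, 24 of 31 comparisons of list shares, medians, percentiles and order moved by less than 1.5 times (percentiles by under 10 points). Some of these could not have moved. Leaving out the closing zeros cannot change a list with no gene there, nor leaving out genes at 0 a list with none. A higher threshold cannot change the other paternally expressed genes, none of which reached 1 FPKM. The count is therefore no measure of stability. Leaving out genes at 0, and short RNA names, was chosen after seeing the data. No paired analysis was possible because the 4 libraries share 1 column, and leaving out a library could not be done for the same reason. Depth limits every value below 1 FPKM to an unknown degree.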
